A study of Homo sapiens and Mus musculus with 21 samples.

Results

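SW620 tumours given a dominant negative LEF1 construct (dnLEF1) were compared with SW620 tumours from a mock lentiviral transduction (Mock), with 3 libraries in each group. The comparison used the human transcripts of these 6 libraries, picked by their labels out of 21 samples in the series, of which 18 were xenografts with human transcripts. SW620 is a human colorectal adenocarcinoma line. The dnLEF1 cells were made by lentiviral transduction, and whether a group came from 1 clone or a pool was not given in the sources used here. Cells were injected at 6 to 8 sites into the caecum wall of NSG mice, an immunodeficient strain, and the caecum was frozen after 28 days. Both groups were therefore grown as tumours in the same kind of host, and only the introduced construct differed by label. SW620 tumours whose LRP6, a Wnt co-receptor gene, was knocked out by CRISPR/Cas9, with selection and sorting for low LRP6 (LRP6KO), SW620 tumours from mock CRISPR/Cas9 transfection with sorting (Cas9), and SW480 tumours with dnLEF1 or Mock, a second colorectal adenocarcinoma line, served to place the values. The design text calls the replicates biological, but no label ties a library to its own animal. The p-values of the gene tests set a difference against the spread between libraries within groups, estimated over all 18 xenograft libraries. Whether that is a spread between animals is not known.

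LEF1 is one of 4 TCF/LEF factors that sit on DNA and switch genes on when β-catenin, the messenger of canonical Wnt signalling, binds to their amino terminus. A dominant negative LEF1 lacks that β-catenin binding domain, so it can occupy target sites without passing the signal on. In colorectal carcinoma the pathway is usually active without ligand, through loss of APC function, and AXIN2, LGR5 and MYC are among its known targets in the gut. These statements are background and were not measured here.

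Expression is given as TPM, a length-corrected share of the human transcripts of a library, which sums to 1000000 in every library and keeps no read depth. Changes are differences of mean log2(TPM + 1), dnLEF1 minus Mock, and come out too small for genes of low level. A gene was called when its limma p-value, adjusted by Benjamini and Hochberg over all 22981 genes tested, was under 0.05. Between 25515 and 28163 human genes were above 0 in dnLEF1 libraries, and between 26388 and 29547 in Mock libraries. Transcripts of the mitochondrial coding genes made up 6.06%, 5.19% and 4.87% of human TPM in the dnLEF1 libraries and 3.90%, 3.75% and 4.03% in the Mock libraries, a difference of 1.48 percentage points with an exact two-sided permutation p of 0.1, the smallest that 3 against 3 libraries can give. The most abundant transcript, the mitochondrial ribosomal RNA MT-RNR2, held 4.73% to 5.95% in dnLEF1 and 1.98% to 2.97% in Mock libraries. Between dnLEF1 and Mock, these shares moved with the groups. Mitochondrial coding transcripts made up 4.7% to 5.7% in the Cas9 libraries, near dnLEF1, and 3.9% to 4.2% in the LRP6KO libraries. MT-RNR2 held 3.26% to 5.76% in Cas9 and 3.69% to 4.02% in LRP6KO libraries. With the mitochondrial genes left out, 32 genes were called in place of 38.

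The tumour cells were checked against markers of colon carcinoma. All 9 markers were above 0 in each of the 6 libraries. EPCAM, an epithelial adhesion molecule, stood at 248, 282 and 295 TPM in dnLEF1 and at 500, 360 and 345 TPM in Mock libraries. The intestinal transcription factor CDX2 (0.17 to 0.76 TPM in dnLEF1, 1.30 to 2.33 TPM in Mock), the cadherin CDH17 (at most 0.40 TPM) and CEACAM5 (at most 0.67 TPM) were close to 0, so the intestinal side of the label rested on VIL1, which codes for the microvillus protein villin (62.2, 99.6 and 119 TPM in dnLEF1, against 125, 118 and 136 TPM in Mock). Human-table levels of genes that mark cell types supplied by the mouse host were low: sums were 5.70 to 8.37 TPM in dnLEF1 and 11.5 to 13.7 TPM in Mock for 5 fibroblast genes, 3.72 to 4.34 TPM in dnLEF1 and 2.87 to 3.66 TPM in Mock for 4 endothelial genes, 13.6 to 16.5 TPM in dnLEF1 and 9.54 to 16.4 TPM in Mock for 4 leukocyte genes, and 14.8 to 22.1 TPM in dnLEF1 and 36 to 43.8 TPM in Mock for 4 smooth muscle genes. Within these lists COL3A1 (at most 0.06 TPM), KDR (at most 0.07 TPM) and PTPRC (at most 0.11 TPM) were at or near 0. Other members were not, and some moved with the groups without overlap, as did 20.9% of all genes tested. The fibroblast matrix gene LUM stood at 2.21 to 5.07 TPM in dnLEF1 and 7.63 to 10.4 TPM in Mock, and the endothelial gene PECAM1 at 3.24 to 3.99 TPM in dnLEF1 and 1.67 to 3.07 TPM in Mock. CD68, a macrophage marker, stood at 3.28 to 4.18 TPM in dnLEF1 and 0.86 to 1.57 TPM in Mock, and LYZ, lysozyme, at 9.56 to 11.4 TPM in dnLEF1 and 8.06 to 13.9 TPM in Mock. All 4 smooth muscle genes lay below 0, beside 64.3% of all genes, with a median log2 change of -0.82. Without overlap, 3 were lower, beside 16.4% of all genes: TAGLN (10.8, 7.61 and 10.6 TPM in dnLEF1, 20.5, 29.4 and 19.6 TPM in Mock), ACTA2 (5.69 to 9.08 TPM in dnLEF1, 11.2 to 16.7 TPM in Mock) and DES (0.68 to 1.47 TPM in dnLEF1, 2.50 to 2.85 TPM in Mock). The part of such transcripts in the results was not tested.

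LEF1 itself (ENSG00000138795.9, chromosome 4, 108047545 to 108168956 in GRCh38, minus strand) was the check of the labels. It stood at 18.3, 22.5 and 24.0 TPM in the dnLEF1 libraries and at 0.30, 0.80 and 0.59 TPM in the Mock libraries. The dnLEF1 libraries lay above all 9 other SW620 libraries, and the means differed 38.3-fold (log2 change 3.86, SE 0.33, adjusted p 7.48e-05). Levels in the other SW620 tumours were low as well, with means of 2.38 TPM in Cas9 and 1.18 TPM in LRP6KO. Gene-level TPM adds the introduced transcript to the cell's own, so the 2 cannot be separated. SW480 Mock tumours, for comparison, held 11 ± 5.21 TPM (SD, n = 3).

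The other TCF/LEF factors and the known Wnt targets were examined next, and none of them was called. TCF7L2, the main TCF factor of the intestinal epithelium, stood at 24.4, 19.5 and 16.1 TPM in dnLEF1 and at 13.2, 19.2 and 24.6 TPM in Mock libraries. The ranges of the groups overlapped. TCF7 averaged 4.21 ± 1.77 TPM in dnLEF1 and 3.17 ± 1.88 TPM in Mock, and TCF7L1 2.98 ± 1.33 TPM in dnLEF1 and 3.47 ± 2.33 TPM in Mock (SD, n = 3 each). CTNNB1, the gene of β-catenin, lay lower without overlap, at 63.2, 73.6 and 67.3 TPM in dnLEF1 against 75.9, 78.7 and 81.9 TPM in Mock, but was not called (log2 change -0.21, SE 0.22, adjusted p 0.842).

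Of 25 Wnt targets and feedback genes, none was called in either direction, beside 0.165% of all genes tested (38 of 22981). Their median log2 change was -0.04, against -0.12 over all genes tested, and became 0.10 when libraries were rescaled by median ratios, which moved the all-gene median to -0.01. AXIN2, the feedback scaffold that marks canonical Wnt output, stood at 34, 22 and 19.2 TPM in dnLEF1 and 24.3, 26.1 and 29.7 TPM in Mock libraries (adjusted p 0.897). Its dnLEF1 values bracket those of Mock. The stem-cell receptor LGR5 stood at 7.58, 7.18 and 8.32 TPM in dnLEF1, against 9.04, 4.09 and 6.47 TPM in Mock (adjusted p 0.841), and the co-receptor LRP6 at 22.9, 19.1 and 15.1 TPM in dnLEF1, against 13.0, 20.4 and 14.4 TPM in Mock (adjusted p 0.852). MYC averaged 323 ± 61.5 TPM in dnLEF1 and 243 ± 42.2 TPM in Mock (SD, n = 3 each), with overlapping libraries (log2 change 0.41, SE 0.31, adjusted p 0.796).

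The 4 members of the list with the smallest p-values had groups that did not overlap. Over the whole list of 25, 3 were higher without overlap, beside 4.49% of all genes, and 2 were lower, beside 16.4%. DKK1, a secreted antagonist that blocks LRP5 and LRP6, stood at 53.1, 59.2 and 50.3 TPM in dnLEF1 and 39.8, 19.9 and 28.1 TPM in Mock libraries (log2 change 0.92, SE 0.24, adjusted p 0.21). APCDD1, a membrane-bound Wnt inhibitor, ranged from 4.85 to 14.3 TPM in dnLEF1, against 3.60 to 3.75 TPM in Mock (1.03, SE 0.27, adjusted p 0.21). For APCDD1 the Mock libraries stood apart from the other SW620 tumours, whose means were 10.4 TPM in Cas9 and 9.24 TPM in LRP6KO, beside 9.27 TPM in dnLEF1. PROX1, a transcription factor of colorectal tumours, averaged 52.6 ± 3.68 TPM in dnLEF1 and 39.6 ± 2.06 TPM in Mock (SD, n = 3 each; adjusted p 0.629). TNFRSF19, a TNF receptor family member, was lower, at 2.70, 2.09 and 2.68 TPM in dnLEF1 against 5.04, 5.65 and 6.54 TPM in Mock (-0.95, SE 0.24, adjusted p 0.2). It was the only one of the 25 that passed when the fit was limited to the 12 SW620 libraries (adjusted p 0.0367), a fit that called 171 of its 19196 genes (0.891%). Among the 31 tested ligands, receptors and planar polarity genes no member was called, and the median was 0.02.

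Across the whole transcriptome, 13 genes were called higher in dnLEF1 (0.0566% of the genes tested) and 25 lower (0.109%). At an unadjusted p under 0.05 there were 1862 genes, or 8.1%. The 6 libraries fell into 2 groups without overlap in 20.9% of genes, and all 38 called genes were of this kind. With median-ratio scaling the split was 22 higher and 19 lower, and 32 of the 38 stayed called. The count was 23, 23 and 17 without dnLEF1 replicates 1, 2 and 3, and 25, 22 and 26 without Mock replicates 1, 2 and 3. Of the 38, 13 were called whichever library was left out: LEF1, MGMT, LHFPL6, MLIP and NRP1 among the higher ones, and ITPR2, BCL2L15, TMX4, KIZ, CXCL6, GSN, CHRNA1 and TMEM45B among the lower ones. None of the 38 changed sign in any of 15 alternative fits, but only 6 were called in all of them: LEF1, LHFPL6, NRP1, ITPR2, KIZ and GSN.

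**Figure D1:**
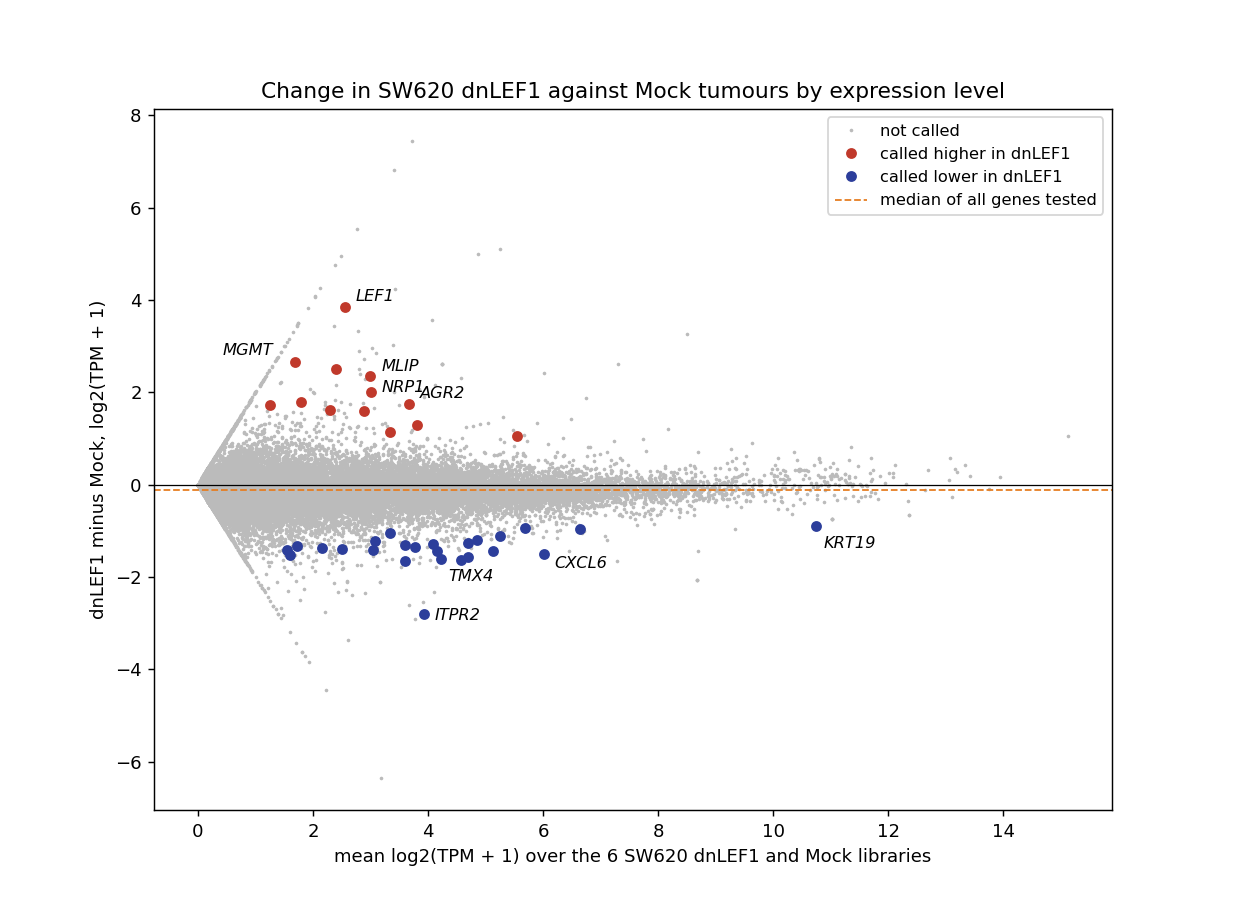
Each point is 1 of the 22981 human genes tested. The horizontal axis is the mean log2(TPM + 1) over the 6 SW620 dnLEF1 and Mock libraries, and the vertical axis the difference of the group means, dnLEF1 minus Mock. The 13 genes called higher (red) include LEF1 at 3.86, the 25 called lower (blue) reach -2.80 at ITPR2, and the dashed line marks the all-gene median of -0.12.

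After LEF1, the largest rise among the called genes was in MGMT (ENSG00000170430, chromosome 10, 129467184 to 129768007, plus strand), which codes for the enzyme that removes alkyl groups from guanine and so protects cells from alkylating drugs. MGMT stood at 7.85, 6.55 and 6.82 TPM in dnLEF1 and at 0.13, 0 and 0.83 TPM in Mock libraries (log2 change 2.66, SE 0.24, adjusted p 8.84e-05). It was also close to 0 in the other SW620 tumours, with 0.143 ± 0.132 TPM in Cas9 and 0.123 ± 0.125 TPM in LRP6KO (SD, n = 3 each), so within SW620 it was expressed in the 3 dnLEF1 libraries and hardly elsewhere. SW480 tumours, in contrast, held 8.28 ± 1.70 TPM with dnLEF1 and 9.90 ± 0.814 TPM with Mock (SD, n = 3 each). Of the other 12 tested genes for direct DNA repair and mismatch repair, none was called, and 11 of the 13 lay below 0.

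The MGMT promoter is known as a CpG island whose methylation silences the gene in many tumours. Methylation was not measured here. The 250 bases before its start (RefSeq, GRCh38.p14, chr10:129466991-129467240, plus strand) are shown with CpG dinucleotides in capitals, because their density is what the promoter is known for. It held 36 CpG dinucleotides, which placed it at percentile 95.3 of the promoters in the table, whose median was 11.
MGMT: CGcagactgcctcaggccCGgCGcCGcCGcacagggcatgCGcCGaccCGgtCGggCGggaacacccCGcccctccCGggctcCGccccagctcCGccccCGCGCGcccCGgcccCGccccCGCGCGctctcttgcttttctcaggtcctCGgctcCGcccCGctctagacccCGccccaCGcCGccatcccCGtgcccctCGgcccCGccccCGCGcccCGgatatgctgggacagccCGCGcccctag

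Several receptors and membrane proteins were called higher. NRP1 (chromosome 10, 33177492 to 33336262), the neuropilin that serves as co-receptor for semaphorins and VEGF, stood at 13.5, 16.9 and 14.9 TPM in dnLEF1 and 2.22, 3.45 and 3.53 TPM in Mock libraries (log2 change 2.00, SE 0.25, adjusted p 0.00216). It was the only called gene of 21 tested semaphorin, plexin, neuropilin and VEGF genes. Its relative NRP2 went the other way in mean, at 10.1 ± 1.56 TPM in dnLEF1 and 14 ± 2.70 TPM in Mock (SD, n = 3 each), without being called (adjusted p 0.671). LHFPL6 (chromosome 13, 39209116 to 39603528), a tetraspan membrane protein gene, stood at 9.95, 12.7 and 12.2 TPM in dnLEF1 and 1.4, 0.79 and 1.5 TPM in Mock (2.51, SE 0.29, adjusted p 0.000798). For both genes the Cas9 and LRP6KO libraries lay near the Mock values, with means for NRP1 of 2.69 TPM in Cas9 and 4.11 TPM in LRP6KO, and for LHFPL6 of 1.46 TPM in Cas9 and 1.06 TPM in LRP6KO.

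GABRA2, a subunit of the GABA-A receptor chloride channel, stood at 5.53, 6.22 and 4.74 TPM in dnLEF1 against 0.76, 0.55 and 1.42 TPM in Mock (log2 change 1.79, SE 0.32, adjusted p 0.0286). TNFSF4, the T-cell costimulatory ligand OX40L, was the lowest of the genes called higher, at 2.61, 3.55 and 3.98 TPM in dnLEF1 and 0.32, 0.58 and 0.06 TPM in Mock (1.74, SE 0.25, adjusted p 0.006). In GABRA2 and TNFSF4 alike the dnLEF1 libraries lay above all 9 other SW620 libraries.

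A gene of the secretory pathway was higher as well. AGR2 (chromosome 7, 16791811 to 16833433), a disulfide isomerase of the endoplasmic reticulum needed for mucin production in the gut, stood at 18, 28.6 and 21.9 TPM in dnLEF1 and 4.99, 6.15 and 6.76 TPM in Mock libraries (log2 change 1.76, SE 0.26, adjusted p 0.006). Of 22 listed intestinal differentiation genes, 11 passed the filter on low values, and the other 10 of these were not called. MUC13, a membrane mucin, stood at 4.74 ± 1.18 TPM in dnLEF1 against 2.91 ± 0.444 TPM in Mock (SD, n = 3 each; adjusted p 0.504). SCG2, which codes for secretogranin II of neuroendocrine granules, stood at 10.6, 14.2 and 11.2 TPM in dnLEF1 and 3.39, 2.49 and 3.99 TPM in Mock (1.60, SE 0.28, adjusted p 0.0253). It was 1 of 7 tested neuroendocrine genes, of which 3 had dnLEF1 libraries above Mock without overlap, beside 4.49% of all genes. CHGB (29.7 ± 2.59 TPM in dnLEF1, 22.8 ± 1.14 TPM in Mock; adjusted p 0.67) and CPE (1.16 ± 0.206 TPM in dnLEF1 and 0.560 ± 0.130 TPM in Mock; adjusted p 0.713; SD, n = 3 each for both) were the others.

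The remaining genes called higher act inside the cell. MLIP, a lamin-interacting protein gene known from muscle, stood at 19.6, 17.3 and 14.6 TPM in dnLEF1 and 4.76, 1.99 and 1.58 TPM in Mock libraries (log2 change 2.35, SE 0.31, adjusted p 0.00299). APOBEC3G, a cytidine deaminase that restricts retroviruses, stood at 18.3, 22.4 and 21.9 TPM in dnLEF1 and 9.27, 5.30 and 9.96 TPM in Mock (1.29, SE 0.22, adjusted p 0.0253). APOBEC3 genes resemble each other closely, so its TPM depends on how the quantification shared reads among them. PFN2, an actin-monomer-binding profilin, stood at 58.4, 69.4 and 72.5 TPM in dnLEF1 against 36.1, 28.4 and 30.6 TPM in Mock (1.05, SE 0.17, adjusted p 0.0186). WWTR1, a transcriptional co-activator of the Hippo pathway, stood at 12.1, 15.5 and 14.9 TPM in dnLEF1 and 4.61, 4.70 and 9.05 TPM in Mock (1.14, SE 0.21, adjusted p 0.0399). For WWTR1 it was the Mock libraries that stood apart: the Cas9 mean was 10.8 TPM and the LRP6KO mean 12.1 TPM. Of 15 tested YAP and TGF-beta or BMP targets, none was called. The last gene, ENSG00000255745.1, is a long intergenic RNA on chromosome 12 without a symbol (7.7 ± 1.2 TPM in dnLEF1, 1.94 ± 1.09 TPM in Mock; SD, n = 3 each; adjusted p 0.041).

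Among the genes called lower, ITPR2 (chromosome 12, 26336515 to 26833198, minus strand) changed the most. It codes for a receptor for inositol trisphosphate, a calcium release channel of the endoplasmic reticulum. ITPR2 stood at 5.20, 3.76 and 5.41 TPM in dnLEF1 and at 41.4, 37.0 and 39.0 TPM in Mock libraries (log2 change -2.80, SE 0.32, adjusted p 0.000798). Cas9 (26.1 ± 1.46 TPM) and LRP6KO (19.4 ± 5.67 TPM; SD, n = 3 each) lay between them, so that both the dnLEF1 and the Mock libraries were outside the range of the 9 others. Of 14 tested calcium channels and pumps of the endoplasmic reticulum, ITPR2 alone was called. The store-operated channel genes ORAI2 (11.2 ± 1.65 TPM in dnLEF1, 21.6 ± 3.505 TPM in Mock; adjusted p 0.234) and ORAI3 (2.75 ± 0.929 TPM in dnLEF1 and 4.95 ± 0.747 TPM in Mock; adjusted p 0.405; SD, n = 3 each for both) were lower without overlap. In all, 6 of the 14 were lower without overlap, beside 16.4% of all genes.

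BCL2L15, a member of the BCL2 family of apoptosis regulators, stood at 7.33, 4.60 and 5.86 TPM in dnLEF1 and 20.1, 22.2 and 19.6 TPM in Mock libraries (log2 change -1.66, SE 0.24, adjusted p 0.0057). The other 17 tested members of that family were not called. BIK, a BH3-only member that promotes apoptosis, stood at 128, 99.3 and 95.8 TPM in dnLEF1 and 176, 175 and 157 TPM in Mock (adjusted p 0.0719, and 0.0216 with only the 12 SW620 libraries in the fit).

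A cytokine receptor and a chemokine were lower. IL20RA, a receptor chain for IL-20 family cytokines, stood at 8.79, 15.7 and 14.1 TPM in dnLEF1 and 43.5, 41.4 and 38.5 TPM in Mock libraries (log2 change -1.64, SE 0.27, adjusted p 0.0186). CXCL6, a chemokine that attracts neutrophils, stood at 32.5, 36.7 and 43.9 TPM in dnLEF1 and 116, 99.0 and 109 TPM in Mock (-1.50, SE 0.20, adjusted p 0.00279). Its close relative CXCL8, interleukin 8, lay lower without overlap, at 48.3, 60.1 and 71.1 TPM in dnLEF1 against 121, 90.4 and 109 TPM in Mock, and did not pass (-0.83, SE 0.28, adjusted p 0.392). Of the 13 tested CXC chemokines and IL-20 receptor genes, 2 were called, beside 0.165% of all genes. Without overlap, 5 were lower, beside 16.4%, and none was higher, beside 4.49%. This list, like the others here, was chosen with earlier results of these data known, so the shares are no test of it.

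Cytoskeletal genes were called in both directions. GSN, gelsolin, which severs and caps actin filaments, stood at 17.7, 19.4 and 24.1 TPM in dnLEF1 and 50.9, 54.2 and 64.4 TPM in Mock libraries (log2 change -1.43, SE 0.19, adjusted p 0.00279). Together with PFN2 it made 1 called gene in each direction among 17 tested actin regulators. EPS8L1, related to an actin-capping adaptor, stood at 2.85, 3.60 and 1.41 TPM in dnLEF1 and 7.37, 8.97 and 8.30 TPM in Mock (-1.39, SE 0.26, adjusted p 0.0419). EPS8L1 was called in 3 of 15 alternative fits, and for it the Mock libraries stood apart, with means of 3.75 TPM in Cas9 and 5.10 TPM in LRP6KO. KIZ, a centrosomal protein gene that stabilises spindle poles, stood at 12.7, 14.5 and 15.1 TPM in dnLEF1 and 44.9, 40.1 and 46.5 TPM in Mock (-1.57, SE 0.21, adjusted p 0.0034). KRT19, a keratin of simple epithelia, was the most abundant called gene, at 1197, 1295 and 1298 TPM in dnLEF1 against 2116, 2554 and 2389 TPM in Mock (-0.89, SE 0.13, adjusted p 0.006).

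TMX4, a membrane-bound thioredoxin of the endoplasmic reticulum, stood at 8.85, 10.8 and 9.52 TPM in dnLEF1 and 37.7, 33.1 and 25.7 TPM in Mock libraries (log2 change -1.62, SE 0.17, adjusted p 0.00048). With AGR2 going the other way, the 15 tested protein disulfide isomerases held 1 called gene in each direction. CHRNA1, the alpha subunit of the muscle acetylcholine receptor, stood at 3.63, 3.68 and 4.81 TPM in dnLEF1 and 10.45, 13.2 and 13.9 TPM in Mock (-1.42, SE 0.21, adjusted p 0.006). TAFAZZIN, an enzyme that remodels the mitochondrial lipid cardiolipin, stood at 8.01, 13.5 and 8.76 TPM in dnLEF1 and 26.0, 28.6 and 31 TPM in Mock (-1.44, SE 0.27, adjusted p 0.041). For TAFAZZIN the Cas9 tumours were nearly as low as dnLEF1 (13.4 ± 1.02 TPM; SD, n = 3), and it was called in 4 of 15 alternative fits. The other 14 genes called lower had log2 changes of -1.51 (ODAD2) to -0.94 (FAM50A), with adjusted p from 0.000798 (TMEM45B) to 0.0441 (JAKMIP2-AS1). Of these, LIME1, FAM50A and JAKMIP2-AS1 were called in 3 of 15 alternative fits each. JAKMIP2-AS1 is annotated antisense to another gene, so its values are uncertain.

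**Figure D2:**
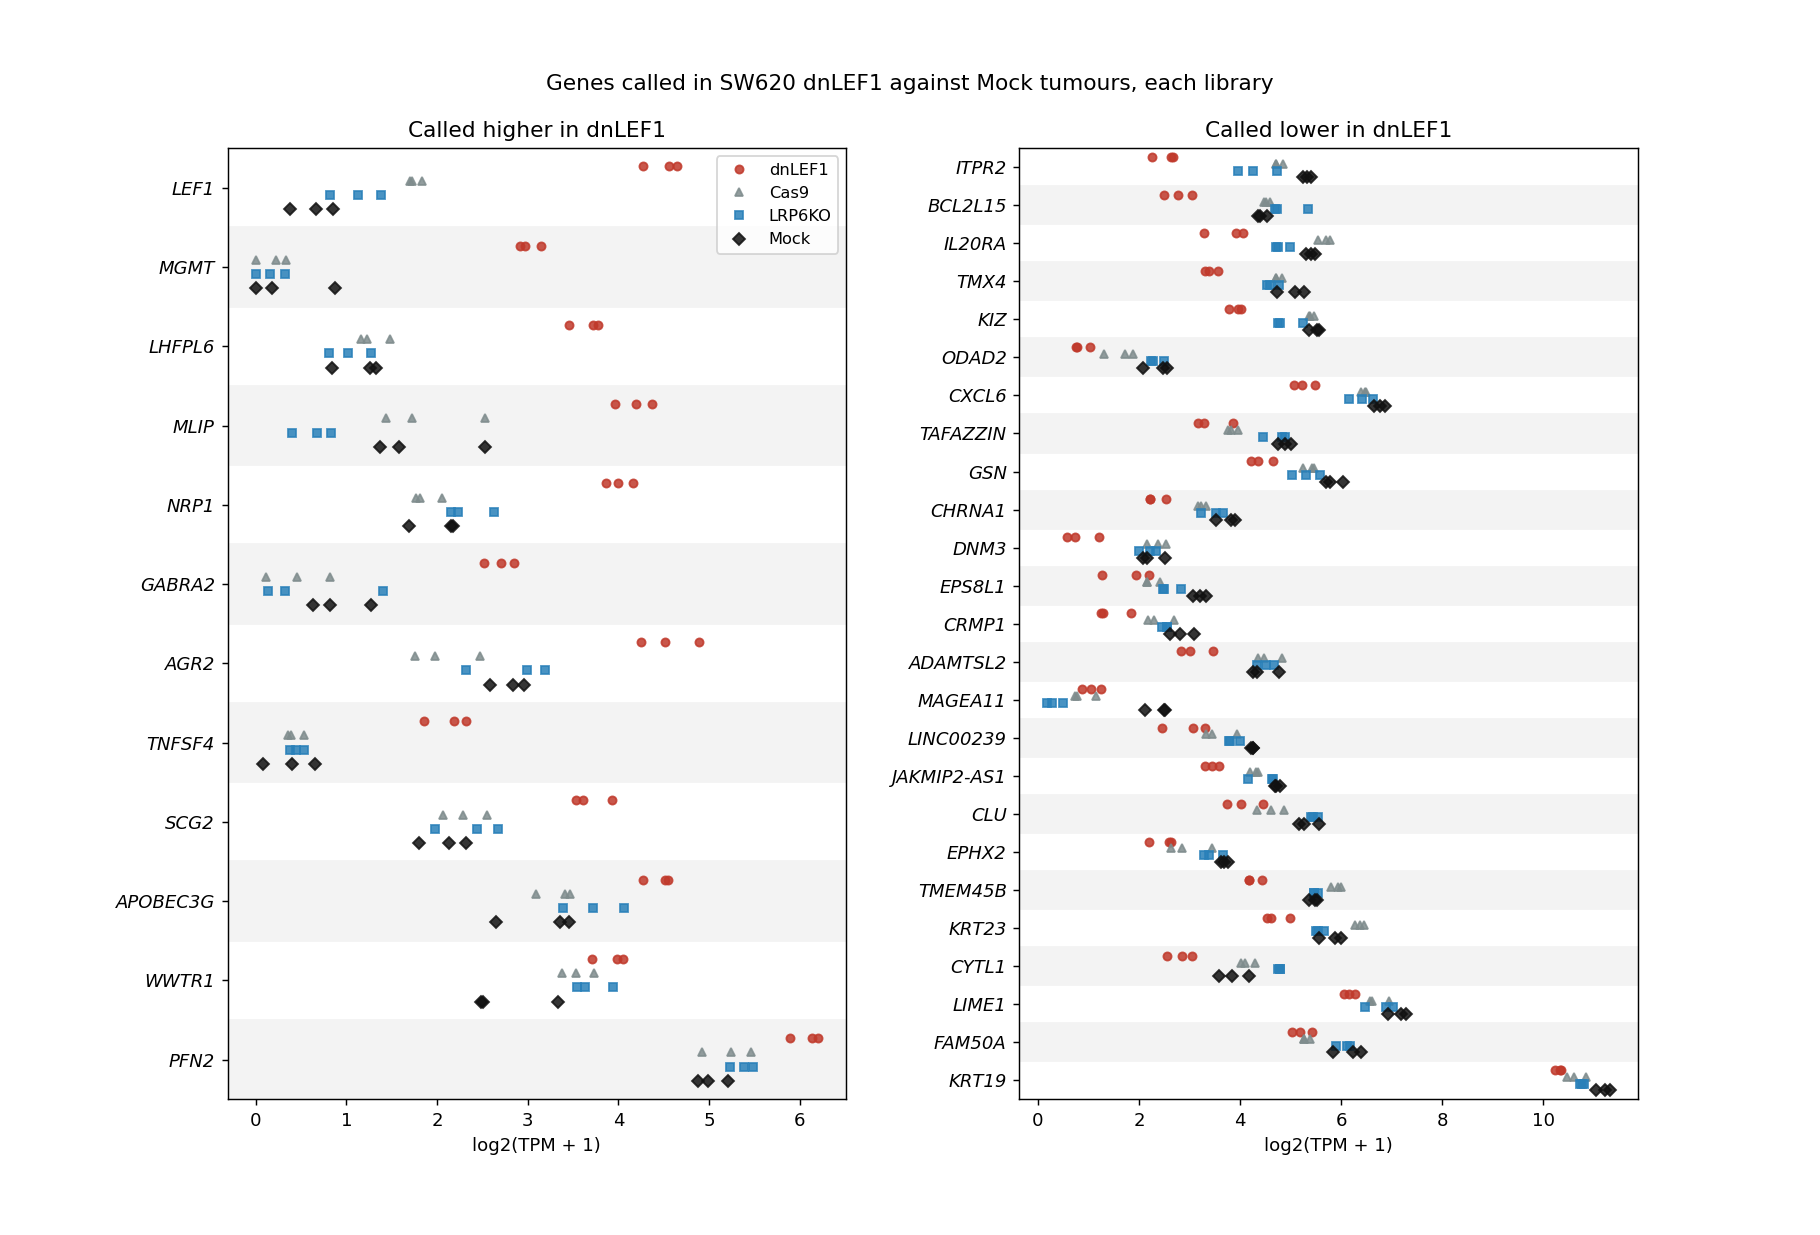
Each row is a called gene with a symbol, each point a library, and the horizontal axis log2(TPM + 1). dnLEF1 libraries (red circles) lie right of Mock libraries (black diamonds) in the left panel and left of them in the right panel. In MGMT, LHFPL6 and TNFSF4 the Cas9 and LRP6KO libraries lie with Mock, whereas in WWTR1 and TAFAZZIN at least 1 of these groups lies near dnLEF1.

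The promoters of TNFSF4 and WWTR1, both called higher, held a sequence that TCF/LEF factors can bind, and they are shown because dnLEF1 keeps the DNA-binding domain. The letters searched on both strands, from 250 bases before to 50 after the RefSeq start, were AACAAAG with its sister forms, which begin differently and were ATCAAAG, then the variant TACAAAG and, as the last one searched, TTCAAAG. A match was present in 2 of the 7 called-higher genes with a promoter in the table, in 2 of 15 called lower, in 3 of 14 Wnt targets and in 9.47% of the 12720 tested genes with a promoter. Of all 27305 promoters in the table, 13.9% held a match. The 250 bases before the start (RefSeq, GRCh38.p14, minus strand) are at chr1:173205533-173205782 for TNFSF4 and chr3:149703274-149703523 for WWTR1, with the match in capitals. In WWTR1 the match is TACAAAG on the opposite strand.
TNFSF4: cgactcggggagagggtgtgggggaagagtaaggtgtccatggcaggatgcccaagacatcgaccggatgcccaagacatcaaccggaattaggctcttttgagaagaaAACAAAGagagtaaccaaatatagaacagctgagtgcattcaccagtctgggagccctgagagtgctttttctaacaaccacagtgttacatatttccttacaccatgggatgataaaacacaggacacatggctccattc
WWTR1: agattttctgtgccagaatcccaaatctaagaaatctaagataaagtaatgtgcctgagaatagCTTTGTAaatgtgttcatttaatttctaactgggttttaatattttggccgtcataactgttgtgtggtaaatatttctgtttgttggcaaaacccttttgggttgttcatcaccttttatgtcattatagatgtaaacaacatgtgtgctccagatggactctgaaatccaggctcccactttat
The matches begin at positions -141 and -186 relative to the start. In the lower group they were in CRMP1 (position -99) and ADAMTSL2 (position 42). Such a match is a description of the letters and shows no binding.

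How did the called genes lie among all 12 SW620 libraries? In 12 of the 13 genes called higher and 20 of the 25 called lower, the dnLEF1 libraries were outside the range of the 9 others, beside 3.05% of all genes tested. The Mock libraries were outside in 2 and 8 genes, beside 2.15% of all genes. The called genes were picked for a difference between dnLEF1 and Mock, so shares above those of all genes were partly fixed by that choice. In 3 genes called lower (TAFAZZIN, CLU and FAM50A) neither group was outside. Among the uncalled genes, APCDD1, BIK, CLDN4, EGLN3, FOSL1, MT-CO1 and MUC13 are examples that had the Mock and not the dnLEF1 libraries outside. Against Cas9 tumours, a second set of controls that shares the dnLEF1 libraries with the first comparison, 23 genes were called (0.1% of the genes tested). Of the 38 called genes, 8 of the 13 higher and 11 of the 25 lower passed there in the same direction. Cas9 against Mock gave no called gene by limma, and 1154 genes (5.02%) had an unadjusted p under 0.05.

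Wider gene lists are described by their counts and medians. Of 20 tested epithelial genes, only KRT19 was called, yet 18 lay below 0, beside 64.3% of all genes, and 11 were lower without overlap, beside 16.4%. Their median log2 change was -0.45 (-0.33 with median-ratio scaling), and -0.18 in Cas9 against Mock. KRT8 stood at 4229 ± 697 TPM in dnLEF1 and 6586 ± 146 TPM in Mock, and KRT18, its filament partner, at 4205 ± 354 TPM in dnLEF1 and 6616 ± 760 TPM in Mock (SD, n = 3 each; adjusted p 0.107 and 0.154). ELF3, an epithelial transcription factor, stood at 15.3, 17.3 and 17.3 TPM in dnLEF1 and 29.8, 33.3 and 35.0 TPM in Mock libraries (log2 change -0.93, SE 0.18, adjusted p 0.0611). The tight junction gene CLDN4 stood at 158 ± 13.5 TPM in dnLEF1 and 241 ± 19.4 TPM in Mock (adjusted p 0.107). KRT8, KRT18, ELF3 and CLDN4 passed with only the 12 SW620 libraries in the fit (adjusted p 0.021 for CLDN4 to 0.0439 for ELF3). In bulk tissue, fewer cells of a type and less RNA per cell cannot be told apart. Of 14 tested mesenchymal genes none was called, 8 lay above 0 and 6 below, and the median was 0.07. Without overlap, 3 were lower, beside 16.4% of all genes, and none was higher, beside 4.49%. S100A4, the member with the smallest p, was lower without overlap. It stood at 3303, 3206 and 3194 TPM in dnLEF1 and 3817, 4280 and 3964 TPM in Mock (limma adjusted p 0.53). SNAI2, a repressor of epithelial genes, was at 2.31 ± 0.890 TPM in dnLEF1 and 1.21 ± 0.635 TPM in Mock (adjusted p 0.699), and FN1, fibronectin, at 14.9 ± 2.53 TPM in dnLEF1 and 11 ± 5.04 TPM in Mock (SD, n = 3 each; adjusted p 0.783).

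None of 18 tested interferon-induced genes was called, while 16 lay below 0, beside 64.3% of all genes, and 10 were lower without overlap, beside 16.4%. Their median was -0.46 (-0.38 with median-ratio scaling), and in Cas9 against Mock, which shares the Mock libraries, it was -0.23. OAS1, an antiviral sensor of double-stranded RNA, stood at 11.3, 11.9 and 11.2 TPM in dnLEF1 and 28.3, 27.5 and 17.4 TPM in Mock libraries (adjusted p 0.207, and 0.0216 with only the 12 SW620 libraries). ISG20, an exonuclease, stood at 10.6 ± 2.67 TPM in dnLEF1 and 18.9 ± 1.73 TPM in Mock (adjusted p 0.168), and IRF9, a subunit of the interferon-activated factor, at 13.3 ± 1.33 TPM in dnLEF1 and 26.7 ± 8.91 TPM in Mock (SD, n = 3 each; adjusted p 0.275). IFITM2, a membrane protein that blocks virus entry, was the exception among the 4 with the smallest p, at 1306, 1248 and 1084 TPM in dnLEF1 and 776, 1017 and 926 TPM in Mock (adjusted p 0.319). HLA class I and antigen processing genes had a median of -0.07, and none of 18 was called.

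Of 16 hypoxia genes none was called, 12 were lower without overlap, beside 16.4% of all genes, and the median was -0.40 (-0.25 with median-ratio scaling). The median of the same genes in Cas9 against Mock was -0.46. EGLN3, an oxygen sensor induced in hypoxia, stood at 13.6, 10.6 and 11.3 TPM in dnLEF1 and 23.7, 37.8 and 25.8 TPM in Mock (adjusted p 0.216, and 0.0242 with only the 12 SW620 libraries), with a Cas9 mean of 13.9 TPM. Of 23 glycolysis genes none was called, and the median of -0.24 became -0.09 with scaling. The lactate exporter gene SLC16A3 stood at 57.2 ± 5.25 TPM in dnLEF1 and 82.4 ± 13.8 TPM in Mock (SD, n = 3 each; adjusted p 0.465).

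The 13 mitochondrially encoded protein genes all lay above 0, with 10 higher without overlap, beside 4.49% of all genes, and a median of 0.47, and none was called. MT-CO1, a subunit of cytochrome oxidase, stood at 3891, 3263 and 3289 TPM in dnLEF1 and 1955, 1815 and 2140 TPM in Mock libraries (adjusted p 0.228, and 0.0333 with only the 12 SW620 libraries). The 25 tested nuclear genes of oxidative phosphorylation had a median of -0.09 and no call. In Cas9 against Mock the mitochondrially encoded genes had a median of 0.37. Of 22 proliferation genes none was called. MKI67, the marker of cycling cells, stood at 32.0, 18.4 and 26.3 TPM in dnLEF1 and 18.1, 16.5 and 16.3 TPM in Mock, and the mitotic cyclin CCNB1 at 215, 230 and 251 TPM in dnLEF1 against 317, 310 and 285 TPM in Mock (adjusted p 0.505 and 0.591). These 2 genes went in opposite directions without overlap.

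Among 19 immediate-early and stress genes, none was called. FOSL1, a subunit of the AP-1 factor, stood at 54.5, 40.1 and 32.8 TPM in dnLEF1 and 15.7, 12.3 and 23.5 TPM in Mock libraries (log2 change 1.28, SE 0.36, adjusted p 0.267), while its relatives JUN (21.9 ± 2.55 TPM in dnLEF1, 36.7 ± 3.35 TPM in Mock; adjusted p 0.429) and FOS (23.2 ± 2.95 TPM in dnLEF1 and 36.1 ± 12.6 TPM in Mock; adjusted p 0.487; SD, n = 3 each for both) had lower means. Of 14 matrix proteases and inhibitors, MMP7, matrilysin, a known Wnt target of intestinal tumours, stood at 27.8, 38.1 and 34.0 TPM in dnLEF1 and 20.0, 15.5 and 18.5 TPM in Mock (0.85, SE 0.23, adjusted p 0.234). The urokinase gene PLAU (25 ± 5.26 TPM in dnLEF1, 39.7 ± 2.62 TPM in Mock; adjusted p 0.204) and its receptor PLAUR (12.1 ± 0.462 TPM in dnLEF1 and 18.1 ± 1.45 TPM in Mock; adjusted p 0.334; SD, n = 3 each for both) lay lower without overlap. None of the 14 was called.

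**Figure D3:**
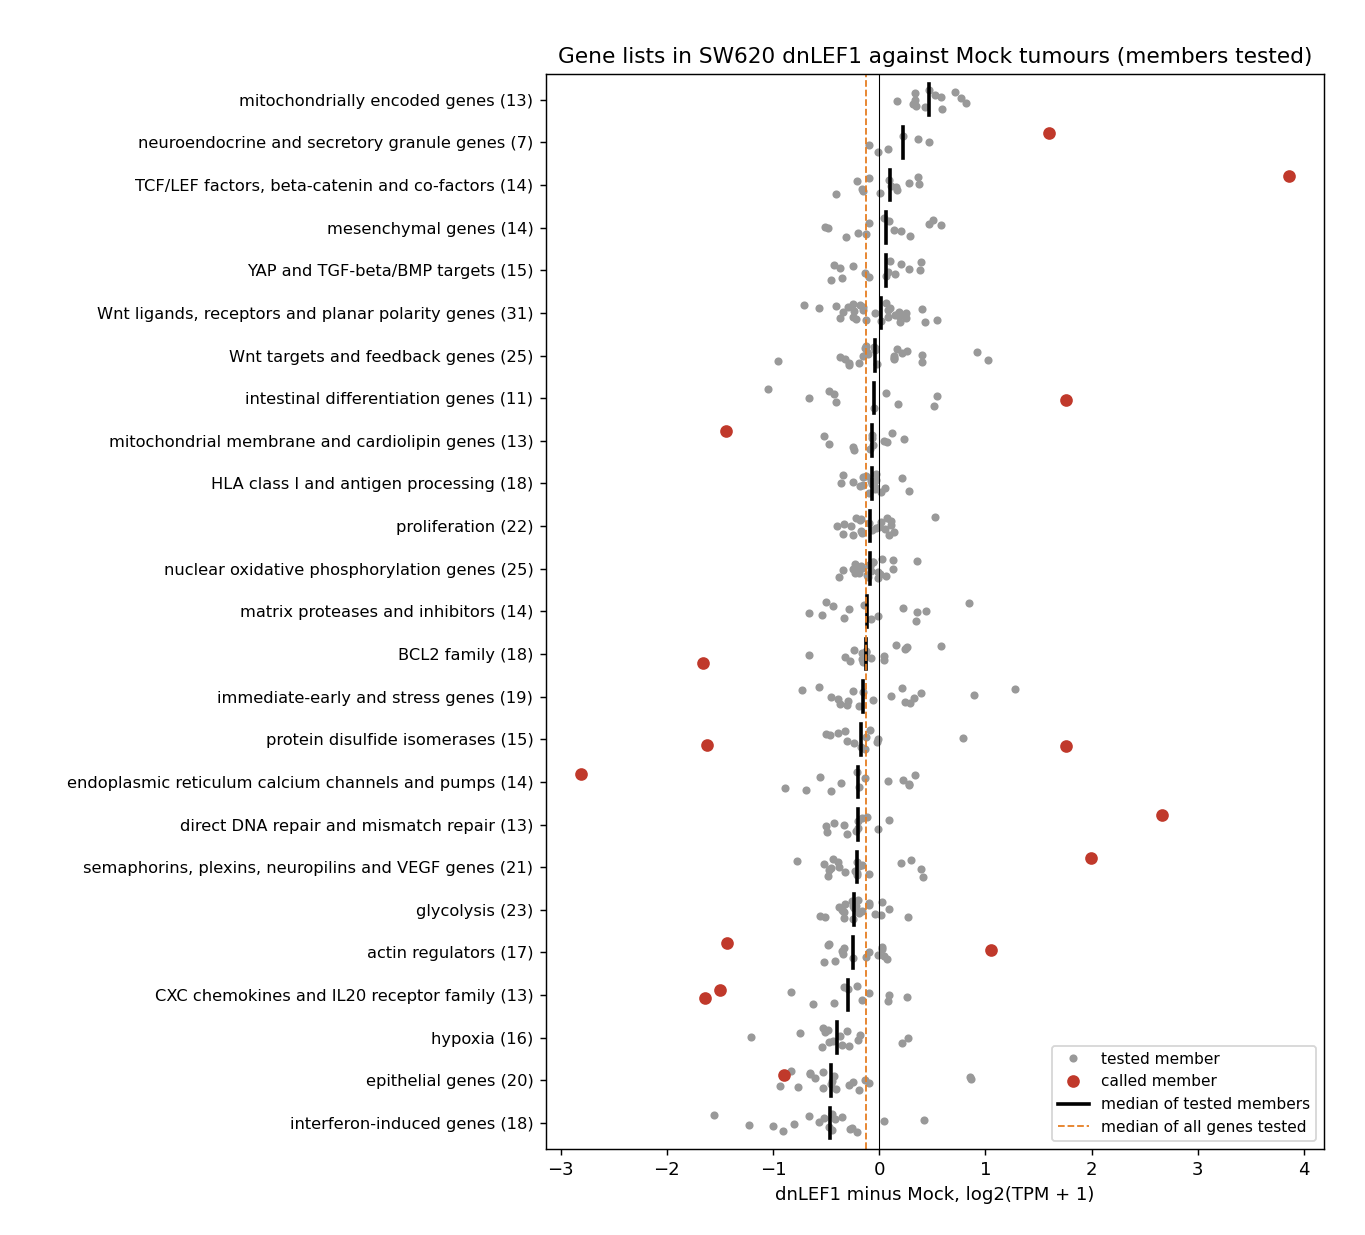
Each row is a gene list with the number of tested members in parentheses, each point a member, and the horizontal axis the change in log2(TPM + 1), dnLEF1 minus Mock. Red points were called, black bars are medians and the dashed line is the all-gene median of -0.12. Epithelial, interferon-induced and hypoxia genes have the lowest medians of the plotted lists, which leave out the marker lists (-0.45, -0.46 and -0.40) and mitochondrially encoded genes the highest (0.47).

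Were the called genes changed in the same way in SW480 tumours? The same construct was compared with Mock in SW480, where 512 genes were called (2.23% of the genes tested). Of the 13 genes higher in SW620, only LEF1 was called in SW480, and of the 25 lower, 5 were: BCL2L15, TMEM45B, KRT23 and KRT19 were lower there too, and TMX4 was higher. BCL2L15 stood at 10.4 ± 3.89 TPM in SW480 dnLEF1 and 60.6 ± 6.24 TPM in SW480 Mock tumours, and KRT23 at 104 ± 27.2 TPM in SW480 dnLEF1 and 414 ± 76.8 TPM in SW480 Mock (SD, n = 3 each). TMX4 stood at 28.9 ± 5.89 TPM in SW480 dnLEF1 and 11.7 ± 0.928 TPM in SW480 Mock (SD, n = 3 each; log2 change 1.22, adjusted p 0.00144). The SW620 change minus the SW480 change was itself tested, and passed for 18 of the 38, beside 0.718% of all genes tested. The 38 were picked by their SW620 change, which is part of this difference, so the 2 shares cannot be compared directly. For LEF1 the difference was 1.36 (SE 0.47, limma adjusted p 0.214). Of the 18, 13 were lower in SW620. In 11 of these 13 the SW480 change was above 0, and TMX4 alone of the 11 was called in SW480. GSN is an example, with 755 ± 134 TPM in SW480 dnLEF1 and 484 ± 103 TPM in SW480 Mock tumours (SD, n = 3 each). Other genes were near 0 in SW480, such as AGR2, with a mean of 0 TPM in SW480 dnLEF1 and 0.0433 TPM in SW480 Mock, and MLIP, with 0.0733 TPM in SW480 dnLEF1 and 0.1 TPM in SW480 Mock.

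**Figure D4:**
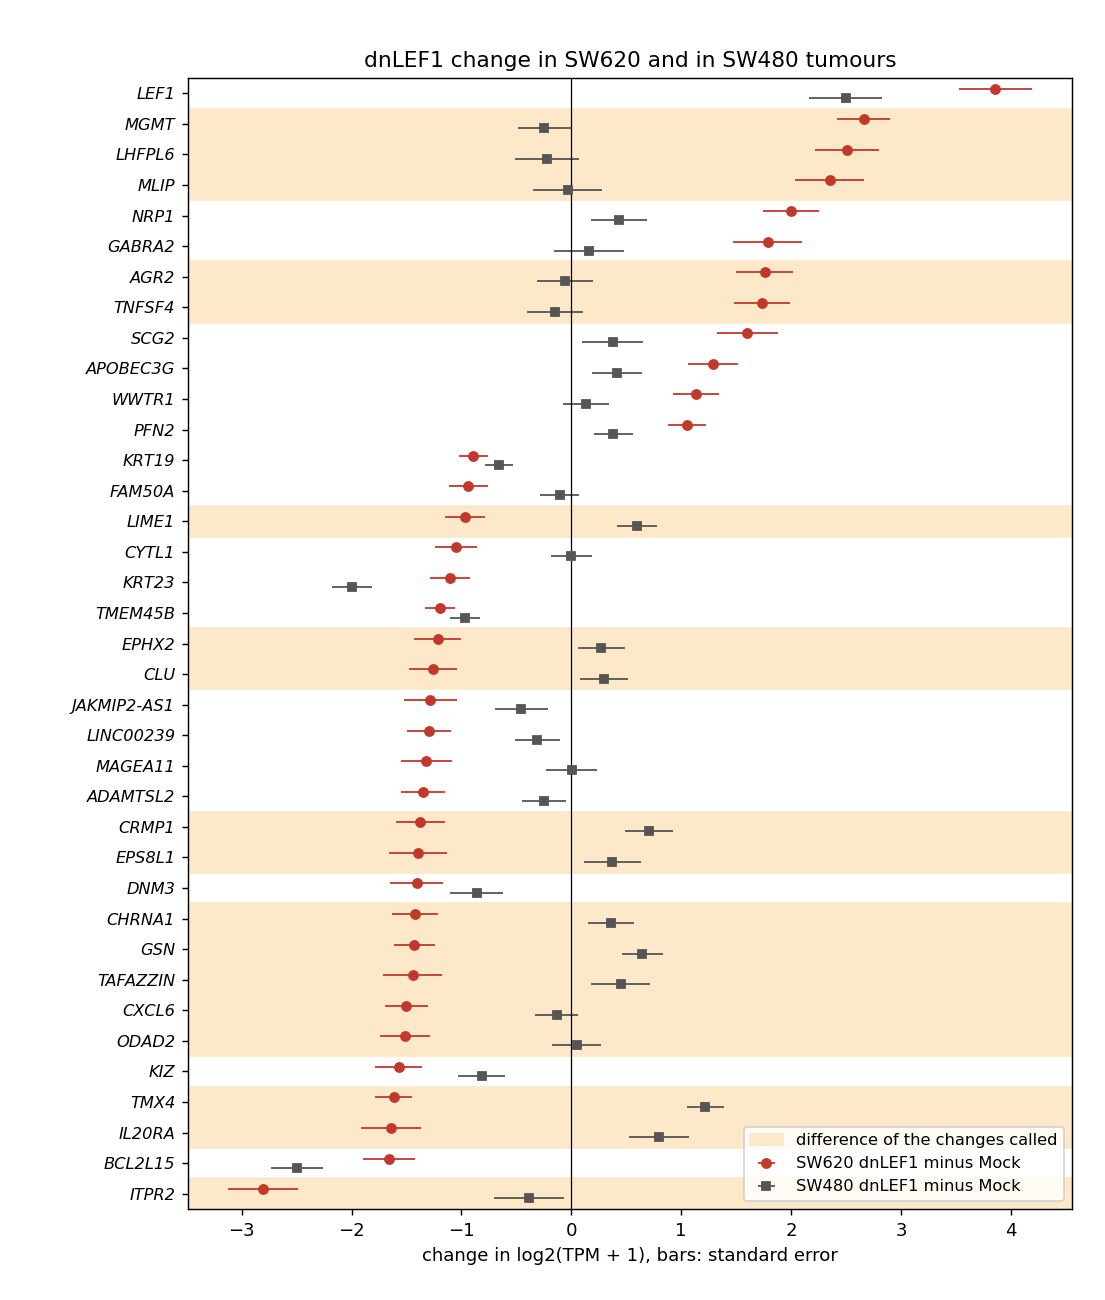
Rows are the called genes with a symbol, ordered by their change in SW620. The horizontal axis is the change in log2(TPM + 1), dnLEF1 minus Mock, in SW620 (red circles) and SW480 (grey squares), with standard errors as bars. Shaded rows mark the 18 genes whose difference between the lines was called, such as MGMT at 2.91 and TMX4 at -2.84.

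Neighbours on the chromosome were compared with the called genes. Genes with a mean of at least 5 TPM and a start within 5 Mb had a median change of -0.53 around TAFAZZIN and FAM50A on chromosome X, where 48 of 52 neighbours were below 0 and 28 were lower without overlap. Of the 10090 genes of this level, 66.6% were below 0 and 26.2% had groups without overlap in either direction. Around MAGEA11 on the same chromosome, whose window shares genes with theirs, 39 of 43 were below 0 (median -0.54). The same neighbours had medians of -0.47 in Cas9 against Mock, and Cas9 and Mock are both control groups. Around the genes with the largest changes downward, neighbours had medians of -0.23 (ITPR2), -0.13 (BCL2L15), 0.03 (IL20RA) and -0.28 (TMX4), beside -0.12 over all genes of this level. CRMP1 and CYTL1, both called lower on chromosome 4, had neighbours with medians of 0.22 and 0.23, and in Cas9 against Mock these were 0.33 and 0.34.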

How the data were processed

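Values are TPM, deposited by the authors as 1 table of human genes with 18 xenograft libraries. Per the submitters' processing notes, the tools included Trimmomatic 0.35, Bowtie 1.2 and RSEM 1.2.31 with builds hg38 and mm10. RSEM shares reads among near-identical copies. How human and mouse reads were separated, and the depth, are not given in the sources used here. TPM keeps no depth, so no counting interval is given. Per the labels' protocols, RNA came from frozen caecum and libraries were made with Smart-seq2. Of 58381 identifiers, 45 second copies of pseudoautosomal genes, all at 0, were left out, and 58216 of the rest were found in GENCODE release 29, which gave positions (GRCh38).

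Genes that reached 1 TPM in 3 or more of the 18 libraries were tested on log2(TPM + 1) with limma 3.58.1 (R 4.3.3, empirical Bayes with a mean trend), with 1 mean for each of 6 groups of 3 and Benjamini-Hochberg adjustment over all 22981 genes. All groups enter the fit so that the spread rests on more libraries, those of SW480 included. The SW480 libraries spread more than the SW620 ones, so fits on fewer groups were made as alternatives. CALB1, for example, had a limma adjusted p of 0.615 in the main fit and 0.00287 with only the 12 SW620 libraries. The composition of the libraries was compared by an exact two-sided permutation test. Tables and plots used Python 3.11.15, pandas 2.3.3, numpy 2.4.6, scipy 1.17.1 and matplotlib 3.10.9. Named genes are every called gene, the core Wnt genes and up to 4 members of each list with the smallest unadjusted p. Called genes with a mean of at least 5 TPM in the higher group are given by library for the 10 largest changes each way, and TNFSF4, PFN2 and KRT19 were added after their values were seen. The members and lists were chosen with earlier results of these data known. Tested on simulated data over 22981 genes for this comparison, the fit found 48.5% of 2-fold and 88.5% of 4-fold changes, and 5.77% of its calls were false. With only the groups compared, these were 31.5%, 82.6% and 5.35%. The changed genes were drawn only from those with a mean of at least 5 TPM, so the shares found do not cover lower genes. The simulated noise was Gaussian and independent between genes, which real libraries need not follow. The alternatives were another pseudocount, no filter, median-ratio scaling, mitochondrial genes left out, fewer groups in the fit, library weights, a replicate block and each library left out.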

Additional observations from a re-analysis of the deposited data

Results flagged for a closer look

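For 18 of the 38 called genes the change in SW620 differed from that in SW480 by a test of the difference itself (limma, adjusted over all 22981 genes). The 38 were picked by their SW620 change, which is part of that difference. The values here are the SW620 change minus the SW480 change, in log2(TPM + 1).

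The largest differences upward were in MGMT (2.9059, SE 0.34, adjusted p 0.000776) and LHFPL6 (2.7245), which SW480 tumours expressed with either construct: LHFPL6 averaged 5.66 TPM in SW480 dnLEF1 and 6.67 TPM in SW480 Mock. MLIP (2.3843), TNFSF4 (1.8829) and AGR2 (1.8177) were near 0 in SW480.

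The largest difference downward was in TMX4 (-2.838, SE 0.24, adjusted p 2.3e-05), whose change had opposite signs in the 2 lines and passed in both. IL20RA differed by -2.4375, with means of 5.83 TPM in SW480 dnLEF1 and 2.71 TPM in SW480 Mock. ITPR2 differed by -2.4185, with 12.5 TPM in SW480 dnLEF1 and 14.8 TPM in SW480 Mock. The actin-severing gene GSN differed by -2.074 and the semaphorin-signalling gene CRMP1 by -2.0805. TAFAZZIN (-1.8905), EPS8L1 (-1.7677), LIME1 (-1.5682), CLU (-1.553) and EPHX2 (-1.4885) were expressed in both lines. CHRNA1 (-1.7834), ODAD2 (-1.5597) and CXCL6 (-1.3688) averaged under 1 TPM in SW480.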

How the results depend on the processing

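In the 15 alternative fits the 38 called genes gave 570 values, of which 372 kept their direction and side of the threshold and 198 kept the direction but were no longer called. Of 1553 values of the other 105 named genes, 43 were newly called. With a pseudocount of 0.1, 21 genes were called (8 higher, 13 lower) and the all-gene median was -0.1536. With no filter the median was -0.0399, and 11 of the called genes differed between the lines. With median-ratio scaling 22 genes were higher and the median was -0.0139, and with mitochondrial genes left out it was -0.0728. With only the groups compared, 120 genes were called (37 higher, 83 lower), 36 against Cas9, and 6 of the called genes differed between the lines. With only the 12 SW620 libraries, 171 were called (37 higher, 134 lower) and 65 against Cas9. With array weights, 394 were called (87 higher, 307 lower) and 240 against Cas9. The cause of these differences was not tested. Leaving out 1 library gave 17 to 26 called genes (6 to 13 higher, 11 to 15 lower), medians of -0.1359 to -0.0959, 16 to 19 against Cas9, and 9 to 20 that differed between the lines. Libraries with the same replicate number did not deviate together (correlations of -0.167, -0.039 and -0.05 over 10090 genes), so the numbers were not taken as pairs. The replicate block gave 32 called genes, and, in a fit chosen after seeing the data, with only the groups compared, 23 (15 higher, 8 lower). In that last fit 29 of the 38 called genes were no longer called. TPM keeps no depth, so values under about 1 TPM are of unknown precision.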

Other observations

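The groups described here were chosen after their values were seen, so no test is given for them. Most keratins lay lower in dnLEF1 tumours: of 26 tested, 23 were below 0, beside 64.3% of all genes, and 14 were lower without overlap, beside 16.4%, with a median log2 change of -0.49 (-0.38 with median-ratio scaling), and KRT19 and KRT23 were called. In Cas9 against Mock, which shares the Mock libraries, the keratin median was -0.24. KRT17, a keratin of basal and stressed epithelium, stood at 14, 11.9 and 15.1 TPM in dnLEF1 and 31.4, 28.0 and 33.1 TPM in Mock libraries. KRT81 and KRT86 are near-identical copies, so their values (KRT81 31.9 ± 3.27 TPM in dnLEF1 and 61.1 ± 2.47 TPM in Mock, KRT86 11.6 ± 1.34 TPM in dnLEF1 and 24.0 ± 2.12 TPM in Mock; SD, n = 3 each) depend on how reads were shared. Cytosolic ribosomal protein genes went the other way by a small amount: 70 of 79 lay above 0 and 44 were higher without overlap, beside 4.49% of all genes, with a median of 0.19 (0.34 with median-ratio scaling), and none was called. RPL30 stood at 2201, 1995 and 2304 TPM in dnLEF1 and 1382, 1556 and 1487 TPM in Mock.

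APOBEC3C, of the same cluster of cytidine deaminase genes as APOBEC3G, stood at 157, 148 and 143 TPM in dnLEF1 and 81.1, 86.3 and 85.1 TPM in Mock libraries (limma, log2 change 0.82, SE 0.20, adjusted p 0.174, and 0.00441 with only the 12 SW620 libraries). APOBEC3B averaged 94.3 ± 5.82 TPM in dnLEF1 and 95.6 ± 17.9 TPM in Mock (SD, n = 3 each). SLC43A3, a nucleobase transporter gene, stood at 129, 157 and 151 TPM in dnLEF1 and 47.4, 47.7 and 68.0 TPM in Mock (adjusted p 0.0768), with means of 109 TPM in Cas9 and 81.2 TPM in LRP6KO. FGF19, a hormone-like growth factor of the intestine, stood at 51.6, 55.1 and 60.4 TPM in dnLEF1 and 103, 81.6 and 114 TPM in Mock (adjusted p 0.0981), with means of 96.5 TPM in Cas9 and 98.2 TPM in LRP6KO. HMGA1, a chromatin protein gene known as a Wnt partner in the gut, ranged from 346 to 571 TPM in dnLEF1 and from 155 to 248 TPM in Mock (adjusted p 0.111). Its means of 365 TPM in Cas9 and 288 TPM in LRP6KO also lay above the Mock range.

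Of the 10090 genes with a mean of at least 5 TPM, 66.6% lay below 0. In some stretches of chromosomes that share was larger. Over 276 windows of 10 Mb the median log2 change per window ranged from -0.55 to 0.23. The middle window stood at -0.12, with quartiles of -0.17 and -0.07. The window from 150 to 160 Mb of chromosome X had 44 of 48 genes below 0 and a median of -0.51. Against the same Mock libraries that window had medians of -0.46 in Cas9 and 0.02 in LRP6KO. The windows from 80 to 90 Mb and from 110 to 120 Mb of chromosome 7 had medians of -0.55 each over 11 genes, beside -0.37 and -0.44 in Cas9 and -0.34 and -0.52 in LRP6KO. Over all 523 such genes of chromosome 7 the median was -0.25, beside -0.20 in Cas9 and -0.20 in LRP6KO. With only the 12 SW620 libraries in the fit, 24 of the 171 called genes were on chromosome 7, CLDN4 among them. That was 2.41% of its genes tested, beside 0.891% of all. In 17 of the 24 the Mock libraries were outside the range of the 9 others, beside 61 of all 171. On chromosome 5 the shift was smaller in the other tumours: from 50 to 60 Mb, 19 of 21 genes were below 0, with a median of -0.49, beside -0.12 in Cas9 and -0.24 in LRP6KO, and from 60 to 70 Mb, 30 of 33, with a median of -0.36, beside -0.09 in Cas9 and -0.24 in LRP6KO. None of these windows was tested.

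Many large changes were not called. Of 126 uncalled genes with a log2 change beyond 2 in size, 42 had groups that did not overlap, and 1 of these codes for protein (ARHGDIG). The mitochondrial transfer RNA MT-TN was listed at 59.1, 295 and 297 TPM in dnLEF1 and at 0 in the 3 Mock libraries (adjusted p 0.275), and MT-TW at 86.9, 145 and 111 TPM in dnLEF1 and at 0 in Mock (adjusted p 0.234). Such short transcripts get a high TPM from few reads.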
